A study of Homo sapiens with 8 samples.

Results

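The clustered protocadherin genes lie side by side in the PCDHA (alpha), PCDHB (beta) and PCDHG (gamma) sub-clusters on the long arm of chromosome 5. They were chosen by position, as the stretch from 140.16 to 140.90 Mb of genome build hg19, parted at 140.40 Mb between alpha and beta and at 140.70 Mb between beta and gamma. Its members here are the 17 islands of the repressive histone mark H3K27me3 that fell in this stretch, out of 105576 islands in all: 14 of the 58144 islands of the line LY19WT and 3 of the 47432 islands of the line LY19Y646F. The lines are human B-cell lymphoma cell lines, untreated and profiled by ChIP-seq at passages 10 to 15. LY19WT has wild-type EZH2, and LY19Y646F constitutively expresses the mutant EZH2-Y646F from a CMV promoter. Whether LY19Y646F is a single clone is not given in the sources used here. Each line had 3 ChIP libraries, which the authors merged before calling islands against 1 input library, so every value below is 1 merged value per line. Replicate error could not be computed, and the lines were compared without a test.

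Clustered protocadherins are cadherin-like adhesion proteins of the cell surface, best known from neurons, where each cell uses its own small choice of them as a surface label. Each alpha or gamma variable exon has its own promoter and is spliced to constant exons shared by its sub-cluster, while beta genes have no shared constant exons. Most of these promoters carry a short conserved element with the core CGCT, and the insulator protein CTCF acts at many of them. H3K27me3 is written by the EZH2 subunit of Polycomb repressive complex 2 and marks silent genes, often over broad domains. The residue changed in EZH2-Y646F lies in the catalytic SET domain and is recurrently mutated in B-cell lymphoma.

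The gene table of RefSeq (GRCh38.p14) lists 53 protein-coding members on chromosome 5, in the order of 15 alpha, 16 beta and 22 gamma genes. Promoter sequences, from 250 bases before to 50 bases after the start, were at hand for 47 of them. The others were PCDHA3, PCDHA13, PCDHB6, PCDHB11, PCDHGA12 and PCDHGC5. The promoters are shown for the shared core that the choice by position did not use. CGCT was present on at least 1 strand in 46 of the 47 promoters, against 69.4% of all 27305 promoters in the table. In the 100 bases just before the start, a stretch chosen after the matches were seen, CGCT on the strand of the gene was present in 44 of 47 (93.6%) and in 28.1% of all promoters. The 3 members without it were PCDHA9, PCDHB8 and PCDHGB2. The core of the CTCF motif, searched on both strands, was present in 1 member, PCDHB9, and in 7.31% of all promoters. Only exact matches to the fixed bases of this core were counted. CTCF sites that differ from it were missed, so the low number does not show that these promoters lack CTCF sites. CGCT is only the 4-base core, and whether a given match belongs to the whole conserved element was not tested. The last 100 bases before the start are printed for the first and last gene of each sub-cluster that has an entry. They are from the plus strand of GRCh38.p14 chromosome 5, with every CGCT match in capitals.
PCDHA1: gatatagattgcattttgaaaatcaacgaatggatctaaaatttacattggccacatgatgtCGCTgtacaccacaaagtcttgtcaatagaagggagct
PCDHAC2: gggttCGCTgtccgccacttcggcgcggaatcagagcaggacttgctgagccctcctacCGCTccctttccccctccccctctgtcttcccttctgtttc
PCDHB1: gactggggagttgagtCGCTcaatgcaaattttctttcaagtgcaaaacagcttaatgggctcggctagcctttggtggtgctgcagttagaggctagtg
PCDHB15: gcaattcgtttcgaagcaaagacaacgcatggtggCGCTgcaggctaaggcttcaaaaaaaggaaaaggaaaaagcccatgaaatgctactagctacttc
PCDHGA1: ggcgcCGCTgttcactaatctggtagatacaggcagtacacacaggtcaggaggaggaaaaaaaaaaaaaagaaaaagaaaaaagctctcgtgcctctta
PCDHGC4: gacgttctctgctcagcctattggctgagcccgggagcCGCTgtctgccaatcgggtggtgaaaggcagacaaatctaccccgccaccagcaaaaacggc

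Most promoters of the locus held few CpG dinucleotides. The median was 7 CpG per 300-base promoter over the 47 members, against 14 over all promoters. The C-type genes with an entry, the last variable exons of alpha and gamma, were above both medians: PCDHAC1 held 27, PCDHAC2 15, PCDHGC3 18 and PCDHGC4 23. Among the others, the promoter of PCDHGA4 held 2 and that of PCDHGB6 held 16, which is more than PCDHAC2 held, and PCDHGB5 stood at 14. The median GC content was 37.3% in alpha, 40.8% in beta and 42.0% in gamma, against 58.3% over all promoters. Promoter positions were on another build than the islands and were not converted, so no island was assigned to a gene, and whether any of these promoters lay under an island was not analysed here.

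**Figure D1:**
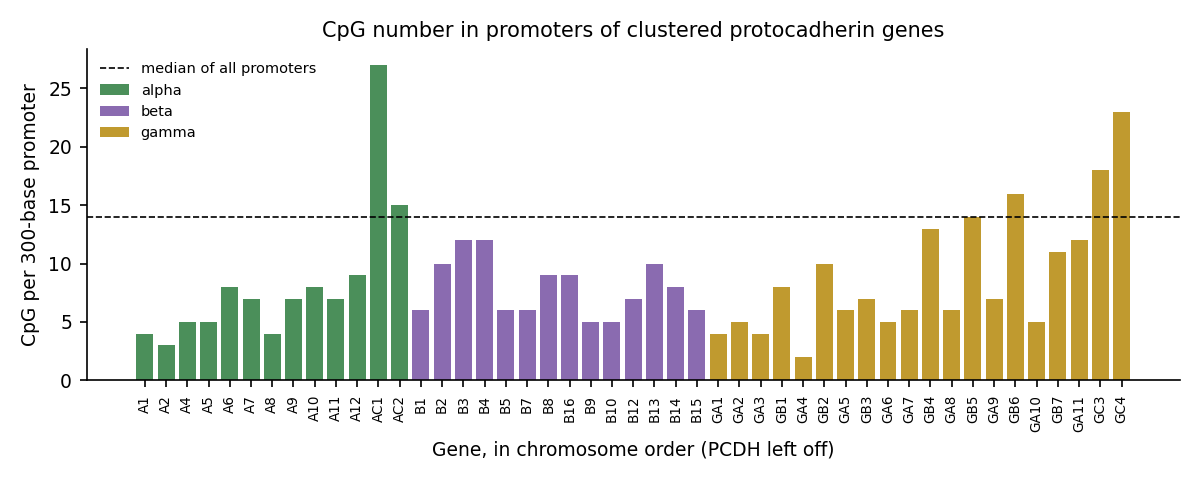
Number of CpG dinucleotides (y axis) in the 300-base promoter of each of 47 clustered protocadherin genes in chromosome order (x axis), coloured by sub-cluster, with the median of all promoters as a dashed line. The C-type genes of alpha and gamma stand at 15 to 27, and most other members lie below the median of 14.

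H3K27me3 islands covered little of the protocadherin locus in either line. In LY19WT they covered 56.0 of 740 kb (7.57%), in 14 islands of 1.2 to 8.4 kb. In LY19Y646F they covered 12.2 kb (1.65%), in 3 islands of 3.6 to 4.6 kb. Islands covered 16.6% of chromosome 5 in LY19WT and 11.8% in LY19Y646F, and 19.8% and 13.7% of the autosomes. Among 3744 autosomal windows of 740 kb, the background for these values, 44.4% were covered as little as the locus or less in LY19WT and 38.1% in LY19Y646F. The locus thus stood somewhat below the middle of windows of its length in both lines, whose medians were 11.8% and 5.86%. Centromeres and assembly gaps were not left out of these windows, and 24.20% of them in LY19WT and 29.35% in LY19Y646F held no island. An island list shows only what passed the calling threshold, and the mark may be present at lower levels between islands.

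**Figure D2:**
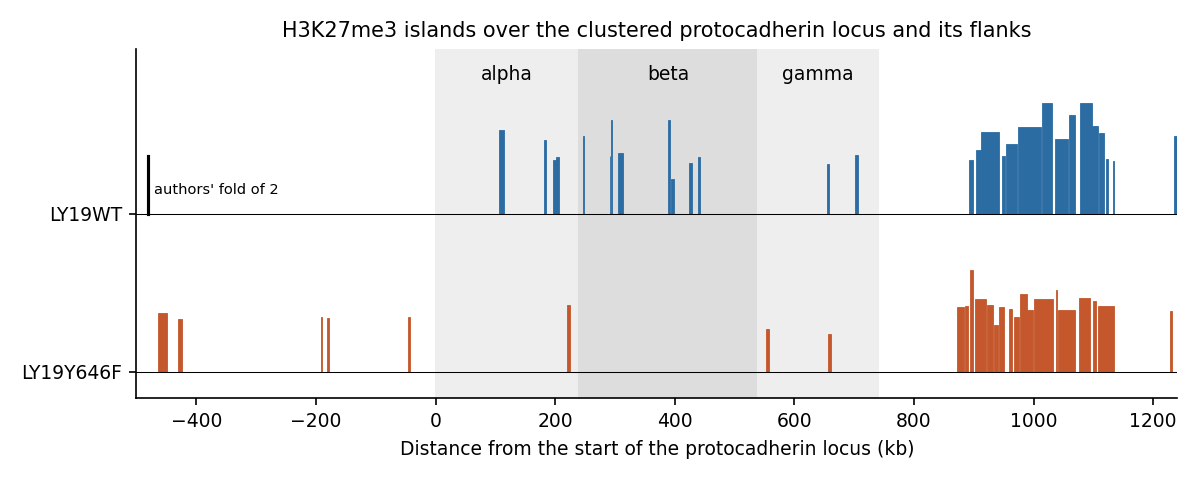
Map of the H3K27me3 islands of LY19WT (top) and LY19Y646F (bottom) by distance in kb from the start of the locus, with flanks of 500 kb; bar width is the island and bar height the authors' fold, to the scale bar. The 14 and 3 islands of the locus are short and scattered, and both lines have dense islands after gamma.

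**Figure D3:**
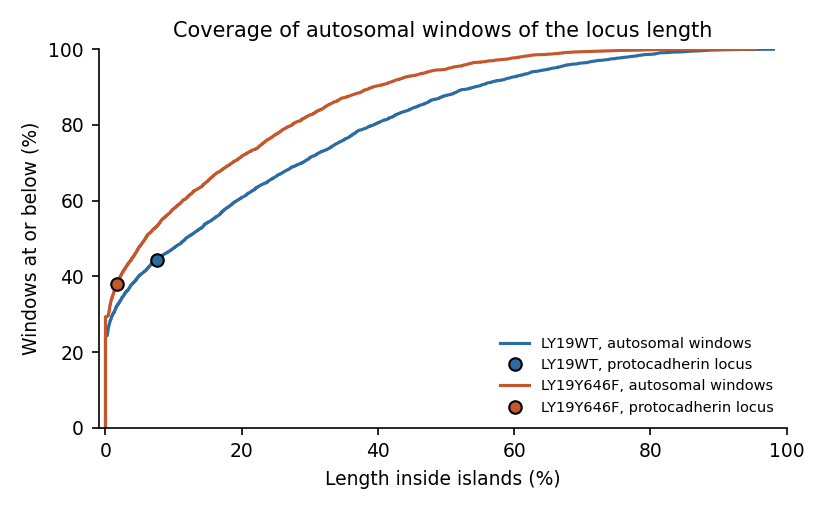
Share of 3744 autosomal windows of 740 kb (y axis) with at most the given covered length (x axis) in each line, with the protocadherin locus as a point. The locus lies at 44.4% of windows in LY19WT and 38.1% in LY19Y646F.

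The sub-clusters differed in which line had islands. The lines differed most in beta, where LY19WT islands covered 30.8 of its 300 kb (10.3%) and LY19Y646F had no island there. Alpha coverage was 7.50% in LY19WT, against 1.92% in LY19Y646F. Gamma coverage was nearly equal, at 3.60% in LY19WT and 3.80% in LY19Y646F. A 300 kb window covered as much as beta or more in LY19WT and free of islands in LY19Y646F was not rare, as 9.64% of 9277 autosomal windows met both conditions. As an alternative, the lists were made equal in covered length by leaving out the LY19WT islands of highest p-value. No LY19WT island was then left in beta or gamma. Coverage of the locus became 0.973% in LY19WT, and the order of the lines over the whole locus turned. The p-value follows read number as well as fold, so short beta islands of 1.4 and 3.4 kb with folds of 3.25 were also left out. The LY19Y646F list was not cut, so the turn cannot show which line covered more. At an FDR of at most 1e-05 both gamma islands of LY19Y646F dropped out and its gamma coverage became 0%.

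**Figure D4:**
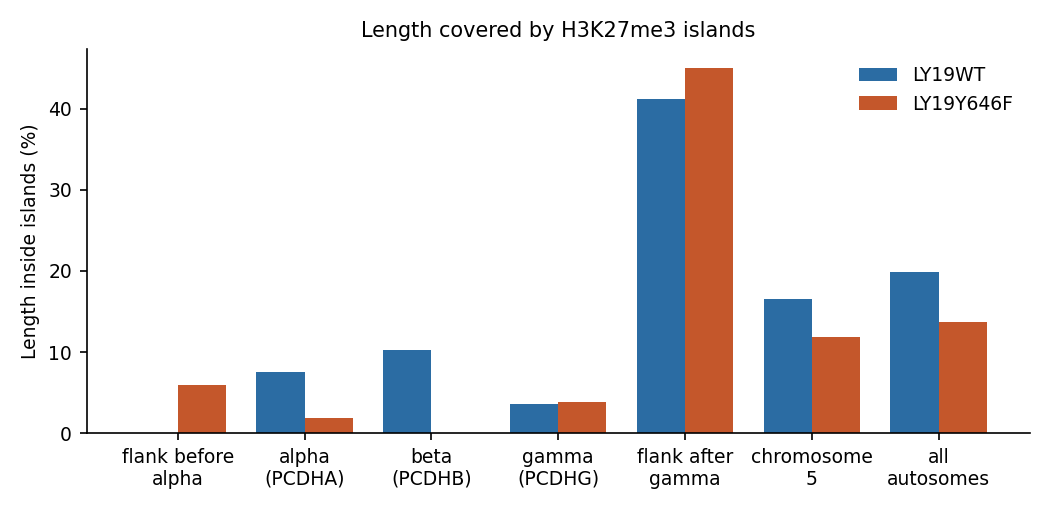
Length inside H3K27me3 islands in percent (y axis) for the flanks, the 3 sub-clusters, chromosome 5 and all autosomes (x axis), with 1 bar per line. All 3 sub-clusters lie below the chromosome in both lines, and the flank after gamma lies above it at 41.2% and 45.1%.

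Windows of 10 kb were mostly free of islands. Of the 74 windows of the locus, 55 (74.3%) held no island of either line, against a background of 60.0% of 279166 autosomal windows. Windows in which LY19WT coverage exceeded that of LY19Y646F by 50 percentage points or more numbered 3 of 74 (4.05%), against 12.4% of all windows. They lay in alpha from 140360001 to 140370000 and in beta from 140550001 to 140560000 and from 140580001 to 140590000. In no window of the locus did LY19Y646F exceed LY19WT by that much, against 6.17% of all windows, and none was covered to at least 50% in both lines, against 6.85%. With windows of 20 kb no window of the locus passed the 50-point limit in either direction.

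Alpha held 4 LY19WT islands. The longest, from 140266601 to 140273800, was 7.2 kb wide with 411 ChIP and 46 input reads. Its authors' fold, the ratio of ChIP to input reads divided by the library ratio, was 2.91, the highest in alpha and higher than that of 82.8% of LY19WT islands. The others had folds of 1.85 to 2.53 and ended at 140366800. Before the first island lay 106.6 kb without any, the widest gap of alpha. The sole LY19Y646F island of alpha lay from 140380401 to 140385000, with 181 ChIP and 30 input reads and a fold of 2.30. Before it lay 220.4 kb of alpha without a LY19Y646F island. It began 13.6 kb after the last LY19WT island of alpha and shared no base with that line.

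Beta held 8 LY19WT islands between 140405801 and 140602200, followed by 97.8 kb without islands up to its end, the widest gap of beta. The longest, from 140465401 to 140473800, was 8.4 kb wide with 495 ChIP and 77 input reads and a fold of 2.09. The islands from 140453001 to 140454400 and from 140548201 to 140551600 shared the highest fold, 3.25. These high folds stood on low input, with 9 and 15 input reads, and their exact 95% intervals, which cover counting error only, ran from 1.64 to 7.35 and from 1.91 to 5.96. The island from 140554401 to 140558800 went the other way, with 340 ChIP and 92 input reads. Its input density of 20.9 reads per kb was 2.49 times the autosomal median of the line, and its fold of 1.20 was lower than that of all but 0.0636% of LY19WT islands. The interval of that fold, from 0.953 to 1.53, included 1. Input over 2 times the autosomal median was found in 0.177% of LY19WT islands, and input above that of this island in 0.0705%. Without this island LY19WT coverage of beta was 8.80%.

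Gamma was the sub-cluster where the lines met. LY19WT had an island from 140814201 to 140817600 with 158 ChIP and 30 input reads and a fold of 1.71, and LY19Y646F had one from 140816601 to 140820600 with 141 ChIP and 41 input reads and a fold of 1.31. They overlapped by 1000 bp, which was the whole length shared by the lines in the locus and gave a Jaccard index (shared length over length covered in either line) of 0.0149. The LY19Y646F island stood close to the calling limit, with an FDR of 0.000861 in the authors' deposited table, where the limit was 0.001. The other gamma islands were at 140861801 to 140865600 in LY19WT, which was the longer and had the higher fold, 2.02, and at 140713401 to 140717000 in LY19Y646F, with a fold of 1.46. In LY19WT the first 114.2 kb of gamma held no island, and in LY19Y646F the widest gap, 99.6 kb, lay between its gamma islands.

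The lines shared 1 pair of islands in the locus. At a minimum of 1 bp, 1 of the 14 LY19WT islands (7.14%) and 1 of the 3 LY19Y646F islands (33.3%) overlapped the other line, against 39.1% and 56.5% over the full lists. No island of the locus was shared when the overlap had to reach 50% of the island. No island crossed a border of the locus or of a sub-cluster. The first and last island edges of the locus were 140266601 and 140865600 in LY19WT, and 140380401 and 140820600 in LY19Y646F. The widest gap across the sub-cluster borders was 212.0 kb in LY19WT, from beta into gamma, and 328.4 kb in LY19Y646F, which spanned beta.

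Raw read densities were read within each line only, since they were not scaled for library depth. ChIP density over the 14 LY19WT islands ran from 44.1 to 77.3 reads per kb with a median of 55.0, and 8 of them were below the list median of 57.3. The 3 LY19Y646F islands had 35.3, 36.1 and 39.3 reads per kb, all below the list median of 41.8. By fold, 9 of the 14 and 2 of the 3 islands were below the median of their list. Over whole sub-clusters, ChIP density was 54.3 reads per kb in alpha, 58.3 in beta and 49.6 in gamma in LY19WT, and 39.3 in alpha and 35.7 in gamma in LY19Y646F. Input density in LY19WT was 7.67, 10.0 and 8.61 reads per kb in the same order, and LY19Y646F had 6.52 in alpha and 9.87 in gamma. Relative to the autosomal median of each line, input over the islands of the locus was 1.08 in LY19WT and 1.02 in LY19Y646F, so that input over the called islands was near the autosomal level in both. By sub-cluster it was 0.912 in alpha, 1.19 in beta and 1.02 in gamma in LY19WT. Of the 309 input reads in beta, 92 were in the island of high input from 140554401 to 140558800, which raises the beta value. In LY19Y646F relative input was 0.774 in alpha, which rests on 30 input reads, and 1.17 in gamma. No read count was at hand for the stretches between islands.

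**Figure D5:**
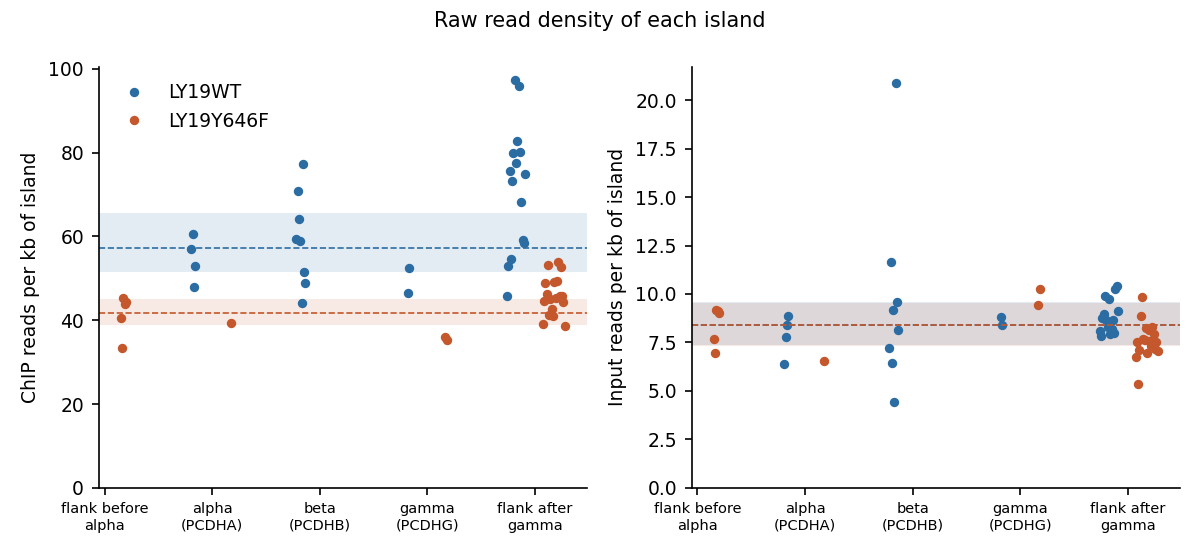
ChIP reads (left) and input reads (right) per kb for each island of the sub-clusters and flanks; dashed lines and bands are the median and quartiles of all islands of the line. LY19WT islands of the locus lie on both sides of the ChIP median of their list and the 3 LY19Y646F islands below theirs, those after gamma lie mostly above it, and 1 beta island stands apart with 20.9 input reads per kb.

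Enrichment over input, summed over the islands of a sub-cluster, was 2.30 in alpha in both lines. Its exact 95% counting intervals were 1.93 to 2.77 in LY19WT and 1.56 to 3.51 in LY19Y646F. In beta, where only LY19WT had islands, enrichment was 1.89 (1.67 to 2.14). In gamma it was 1.87 (1.43 to 2.50) and 1.38 (1.06 to 1.81), a log2 ratio of LY19Y646F to LY19WT of -0.44, and the intervals overlapped. Over the whole locus the log2 ratio was -0.28. Values like it were found outside the locus, with -0.31 in the flank after gamma, -0.39 for the sum over the full lists and -0.26 for the median fold of the lists. Set per kb against the total of ChIP reads in islands, the ratios were 0.65 in alpha, 0.63 in gamma and 0.52 over the locus, against 0.65 for the median of the full lists. Both that scaling and the library ratio of the main values divide all islands of a line by 1 constant. The sign of either ratio therefore tells nothing of the sub-clusters. For raw ChIP over raw input reads, not scaled for library depth, the log2 ratios were -0.23 in alpha, -0.67 in gamma and -0.51 over the locus. They differ from the main ratios only by the library ratios, 1 constant per line, and so tell nothing more of the sub-clusters. All sums over the locus or its sub-clusters compare different places, since the islands of the lines shared only 1000 bp there.

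In LY19WT the flank before alpha was covered less than the locus and the flank after gamma more, while in LY19Y646F both flanks were covered more than the locus. In the 500 kb before alpha LY19WT had no island, and its nearest lay 686.0 kb before the locus, while LY19Y646F had 5 islands over 29.6 kb (5.92%). Of 5558 autosomal windows of 500 kb, 30.03% held no LY19WT island and 52.21% were covered to 5.92% or less in LY19Y646F, so that both values were common ones. In the 500 kb after gamma both lines had dense islands: 15 in LY19WT over 41.2% and 18 in LY19Y646F over 45.1%. Both values were above the upper quartile of the windows of 500 kb, 34.4% in LY19WT and 22.2% in LY19Y646F. The domain began at 141052001 in LY19WT and at 141031601 in LY19Y646F, after 152.0 and 131.6 kb without islands. The lines shared 176.0 kb of it, a Jaccard index of 0.690. The last LY19WT island, from 141394601 to 141403600, crossed the outer border of the flank. Over all islands of the flank after gamma, ChIP density was 77.5 (LY19WT) and 46.5 (LY19Y646F) reads per kb, above the densities in the locus. Their summed enrichment over input was 2.87 (2.73 to 3.01) and 2.31 (2.20 to 2.44). In the order of the gene table, DIAPH1, HDAC3 and, further on, the non-clustered protocadherin genes PCDH1 and PCDH12 follow the gamma genes. Which of them the domain covers was not analysed here.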

How the data were processed

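H3K27me3 ChIP-seq of 2 lymphoma lines was deposited as 1 island list for each line. The build was hg19, and the tools were SICER, bedtools, SAMtools 1.3.1 and Bowtie2 2.2.9, per the submitters' processing notes. Per the labels, SICER islands were called on merged replicates against the line's input at an FDR of 0.001. Per the file headers, each island has raw counts of ChIP and input reads, a p-value, a fold and an FDR. The deposited fold is a linear ratio equal to the count ratio divided by 3.07 in LY19WT and 2.62 in LY19Y646F. These constants were read as library ratios. Versions of SICER and bedtools and the library sizes are not given in the sources used here.

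Islands were clipped at region borders for covered length. Reads cannot be split and were summed over whole islands. Coordinates are 1-based. Promoters were taken once per gene, at the first start listed. Background windows tiled each autosome between the outermost islands of the lists. Centromeres and assembly gaps were kept in, which raises the shares of windows with little or no coverage. Intervals are exact and conditional on the summed reads. No test was made because replicates were merged. The steps were tested on simulated lists. Named regions were the longest and highest-fold island, border-crossing islands, outer edges and the widest gap per sub-cluster and line. Runs of at least 3 neighbouring 10 kb windows were to be named, but none occurred, and the 3 windows found were named after their values were seen. The beta island of high input was also named after its values were seen. The members and lists were chosen with earlier results of these data known. Calculations used scipy 1.17.1, pandas 2.3.3 and numpy 2.4.6 under Python 3.11.15. Alternatives were stricter FDR limits, joining across 5 kb gaps, borders moved by 10 kb, an LY19WT list cut to equal covered length, other windows, overlaps, scalings and input references. Leaving out islands with input over 2 times the median was added after seeing the data.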

Additional observations from a re-analysis of the deposited data

How the results depend on the processing

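Of 142 alternative values, 103 stayed within range of the main value, 33 moved out of it and 6 had the opposite sign. The range was 1.5 times for numbers of shared islands and for window lengths, and the 95% counting range for the other values. The range for coverage treats 200 bp steps as independent, which they are not within an island. At an FDR of at most 1e-05, LY19Y646F coverage became 0% in gamma and 0.622% in the locus, shared length and Jaccard index became 0, and the gamma difference of 0.200 points reversed to -3.60. At 1e-10, LY19WT coverage was 8.40% in beta, 1.90% in gamma and 6.35% in the locus. LY19Y646F was at 0% in gamma and 0.622% in the locus, shared length and Jaccard index were 0, and the gamma difference was -1.90. With the LY19WT list cut to equal covered length, LY19WT coverage was 3% in alpha, 0% in beta, 0% in gamma and 0.973% in the locus, the shared length and Jaccard index were 0, and the locus difference turned from -5.92 to 0.676 points. That cut removes islands from LY19WT alone, and its order by p-value also drops short islands of high fold. With an overlap of 50% of the island or of both islands, 0 islands of either line were shared. The length of windows at least 50 points higher in LY19WT went from 30 kb to 55 kb with 5 kb windows, 0 kb with 20 kb windows and 0 kb at 80 points, and that in LY19Y646F from 0 to 5 kb with 5 kb windows. With levels set per kb against the sum of ChIP reads in islands, the log2 ratios were 0.65, 0.63 and 0.52 in alpha, gamma and the locus. In the main value alpha had no direction (-0.00). This scaling changes the 1 constant per line and also takes island length in place of input reads. Where no construction of the alternative shows it, the cause was not tested. Moving borders by 10 kb and leaving out islands of high input changed no value beyond its range. No paired analysis was possible because the replicates of a line were merged before islands were called, and leaving out a replicate was impossible for the same reason. Depth limits what is seen: island lists leave out the mark below the threshold, and 3 LY19Y646F islands of 130 to 181 ChIP reads carry all values of that line in the locus.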
